A study of Homo sapiens with 9 samples.

Results

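OEC-M1 is an oral squamous cell carcinoma line, used here as a cell model of head and neck squamous cell carcinoma (HNSCC). The data described are those of its control cells under hypoxia, which are 3 of the 9 arrays of the series. The members were chosen by label alone, as the arrays of cells that received non-targeting siRNA (si-Control, labelled siControl). These cells were grown in RPMI with 10% FBS, carried the siRNA for 72 h and were held at 1% O2 for 18 h before total RNA was taken. Their RNA was copied into cDNA, labelled with Alexa555 and hybridized to Agilent 8×60K human arrays with 1 dye. The other 6 arrays, of GATA3 and HIF-1α knockdown cells, were not compared with them. There was no array of cells in normal oxygen among the samples, so a bright probe in these cells cannot be read as induction by hypoxia. Of 22437 genes with a RefSeq symbol, 20986 were measured on all 3 si-Control arrays, and these are the genes counted throughout. For the remaining 1451, the brightest probe, which stood for the gene, lacked a usable spot on at least 1 array. The scanner software had marked that spot as non-uniform. Some of these genes, such as IL4R, had another probe measured on all 3 arrays.

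Squamous epithelium is built from basal cells, which carry keratins such as KRT5 and KRT14 and rest on laminin, and from suprabasal cells, which make the cornified envelope. Carcinomas of this tissue can keep such genes, take up the keratins of simple epithelium, or gain mesenchymal genes such as vimentin and fibronectin. In low oxygen, the prolyl hydroxylases and VHL no longer remove the HIF-1α protein, which then pairs with ARNT and binds short core sequences near genes for glycolysis, glucose and lactate transport, pH control and angiogenesis. HIF-1α is thus controlled mainly as a protein, and its mRNA need not change.

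The median spot intensity was 2807.5 on si-Control replicate 1, 2126.5 on replicate 2 and 992.5 on replicate 3, and spots were well above background in 88.5%, 86.3% and 86.3% of cases. Replicate 3 was the dimmest array and stood apart from the others. Spearman's correlation across the 20986 genes was 0.977 between replicates 1 and 2, 0.952 between replicates 2 and 3, and 0.911 between replicates 1 and 3. These correlations are across genes, which are not independent replicates. The labels do not say whether the replicates were separate cultures, so the spread between them may be technical. Below, 3 values given together are for replicates 1, 2 and 3, in that order, and counts over the gene lists that replicate 3 changed are given with and without it.

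Each gene was ranked within each array by its brightest probe, and a percentile is the share of genes that were dimmer on that array. Probes differ in how well they bind, so a percentile orders probes by brightness and not transcripts by amount. The scanner's mark of a spot well above background was permissive. It was met on all 3 arrays by 18637 genes, or 88.8% of those measured, and by 248 of the 334 measured olfactory receptor genes, which an oral epithelial line is not known to use. Conversely, 1105 genes (5.27%) had no probe well above background on any array. A stricter limit was therefore set at the 95th percentile of the olfactory receptor genes on each array, which fell at the 83.6th, 81.0th and 74.8th percentile of all genes. Above this limit on all 3 arrays, which is called above the olfactory receptor range, were 2954 genes (14.1%), and 3332 (15.9%) without replicate 3. None of 25 measured taste receptor genes was among them on all 3 arrays. The top 10% of the ranks on all 3 arrays held 1505 genes (7.17%), and 1958 (9.33%) without replicate 3. These 4 shares are the background for the lists below, and no test was made, since all arrays belong to 1 group.

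**Figure D1:**
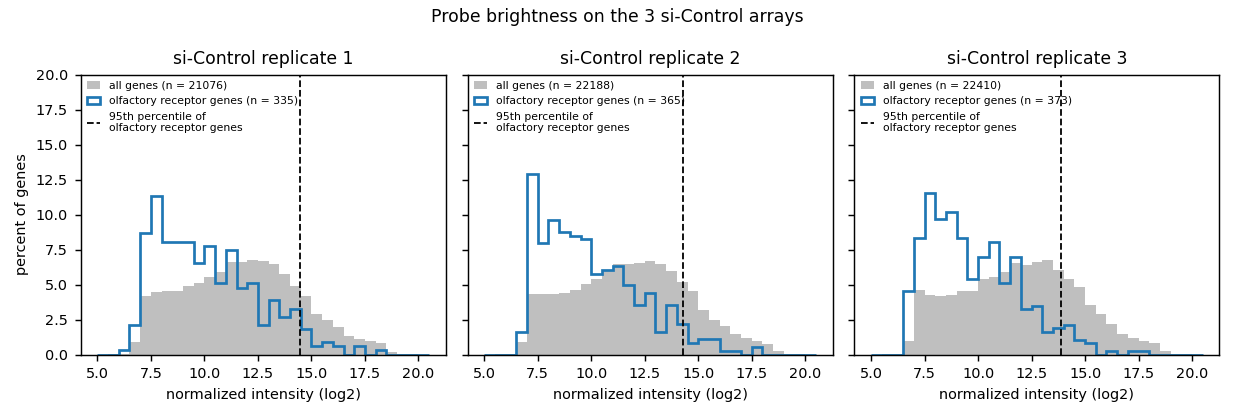
Share of genes (y axis, percent) by normalized log2 intensity of the brightest probe (x axis) on each si-Control array, for all genes with a symbol (grey) and for olfactory receptor genes (blue outline). The dashed line is the 95th percentile of the olfactory receptor genes, at a log2 intensity of 14.45, 14.27 and 13.86, and the olfactory receptor genes reach far into the range of the other genes.

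Genes with more probes had more chances of a bright one. Of genes with 2 probes, 19.9% were above the olfactory receptor range, and of those with 3 or more, 31.0%, against 14.1% of all genes. Among 762 genes in the top 10% with at least 2 probes, 436 (57.2%) also had a probe within the olfactory receptor range on all arrays. Where the probes of a gene named with its values disagree in this way, this is said beside it.

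The brightest probes were those of RNAs that nearly every cell makes in quantity. The ribosomal RNA genes RNA28SN5, RNA18SN5 and RNA5-8SN5 and the small nuclear RNA RN7SK, which holds back transcription elongation, held the first 4 places by mean percentile. ACTB, which encodes cytoplasmic β-actin, was at the 99.98th, 99.98th and 99.97th percentile. POTEF was at the 99.96th on every array, but this gene carries an actin-like sequence that is nearly the same as ACTB, so its probe and those of ACTB may share signal. The ribosomal proteins RPS2 and RPLP0, the ferritin heavy chain FTH1, the elongation factor EEF1A1, the nucleolar protein NPM1 and the imprinted non-coding RNA H19 were also among the brightest 20. The same 20 held less familiar names, namely YTHDF3, VPS9D1, SBNO2, IQSEC2, ADAMTSL5, OSCAR and ZFTA. Of these, YTHDF3, SBNO2, IQSEC2 and ZFTA also had probes within the olfactory receptor range, the dimmest of IQSEC2 averaging the 3.76th percentile. OSCAR, an immune receptor of osteoclasts, was at the 99.90th, 99.93rd and 99.92nd percentile.

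Of 20 housekeeping genes, 13 (65.0%) were in the top 10% on all arrays, with a median percentile of 95.1, and all 20 were well above background. The dim end of this list shows how far brightness can lie from use. TBP, the TATA-binding protein that general transcription depends on, was at the 40.8th, 48.3rd and 54.9th percentile, and the transferrin receptor TFRC was at the 43.5th, 68.3rd and 82.1st. A low rank therefore does not mean that a gene was unused.

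The labelled cell type was checked against its markers. Of 19 basal keratinocyte markers measured, 6 (31.6%) were above the olfactory receptor range and 4 (21.1%) were in the top 10%, against 14.1% and 7.17% of all genes, and both counts were the same without replicate 3. With the 99th percentile of the olfactory receptor genes as the limit, none of the 19 was above it. The bright members included keratins and a laminin chain. KRT14, the type I keratin of basal cells, was at the 93.7th, 95.3rd and 99.1st percentile, although its second probe, not measured on replicate 1, was at the 36.4th and 65.2nd. The laminin chain LAMB3 was at the 91.9th, 94.7th and 97.7th, the 14-3-3 protein SFN at the 91.4th, 94.4th and 96.4th, and KRT15 at the 90.2nd, 91.1st and 94.1st. On each of these genes, replicate 3 was the highest array, as it was for 13 of the 19 markers (68.4%). Replicate 3 was also the highest array for 51.3% of all genes and 80.0% of the housekeeping genes.

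The basal list was not bright as a whole. KRT5, the type II keratin that pairs with KRT14, was at the 3.65th, 5.61st and 3.83rd percentile and was not well above background on any array. KRT6B, a keratin of activated keratinocytes, was likewise never well above background, at the 5.10th, 2.38th and 3.83rd. TP63, the master regulator of the basal lineage, was at the 43.7th, 45.8th and 48.9th, inside the olfactory receptor range. TRIM29 and the desmosomal cadherin DSG3, which had no usable spot on replicate 1, were each well above background on 1 array, with TRIM29 at the 8.64th, 6.67th and 2.76th percentile. A defining keratin of the labelled lineage, KRT5, thus did not pass the scanner's mark while its partner KRT14 was bright, each by 1 probe measured on all 3 arrays.

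Of 16 suprabasal markers measured, 3 (18.8%) were above the olfactory receptor range and 3 (18.8%) in the top 10%, against 14.1% and 7.17% of all genes. The others were mostly dim, and the median percentile of the list was 42.5. Involucrin (IVL), a scaffold of the cornified envelope, was at the 96.2nd, 96.7th and 97.2nd percentile by 1 probe. The small proline-rich protein SPRR1A was at the 99.54th, 99.66th and 99.61st, but its other probe was at the 75.2nd, 67.3rd and 44.0th. The brightest probe of filaggrin (FLG) was at the 95.5th, 96.1st and 96.3rd, and its others were within the olfactory receptor range, at the 76.4th, 74.7th and 54.6th and at the 29.6th, 24.7th and 17.0th. KRT1, KRT4 and cornulin (CRNN), which mark differentiated layers, lay below the 17th percentile on every array.

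Keratins of simple epithelium were among the brightest list members. KRT19 was at the 99.69th, 98.3rd and 98.9th percentile, KRT7 at the 99.1st, 99.1st and 98.6th, KRT8 at the 98.9th, 98.5th and 98.4th, and KRT18 at the 98.6th, 97.6th and 98.4th. These 4 keratins form the intermediate filaments of glandular and other single-layered epithelia. The mucin MUC1 and the epithelial ETS factor ELF3 were also in the top 10% on all arrays. E-cadherin (CDH1), the main adhesion molecule of epithelia, was at the 86.9th, 86.4th and 92.8th percentile and EPCAM at the 72.3rd, 75.8th and 86.1st, above the limit on replicate 3 alone. In all, 7 of 20 general epithelial markers were above the olfactory receptor range and 6 in the top 10%, and 19 were well above background on all arrays. The intestinal keratin KRT20 was at the 21.4th, 8.78th and 1.96th percentile.

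Mesenchymal markers split widely. Fibronectin (FN1) was at the 98.93rd, 98.96th and 98.20th percentile, vimentin (VIM) at the 96.4th, 98.6th and 99.52nd, and SNAI2, a repressor of epithelial genes, at the 95.04th, 96.04th and 94.48th. N-cadherin (CDH2) was at the 91.1st, 88.9th and 73.7th by its brightest probe, which was above the olfactory receptor limit on replicates 1 and 2 but not on replicate 3. The other probe of CDH2 was within the range on every array, at the 62.2nd, 55.9th and 43.0th. S100A4 and, by 1 of 2 probes, the receptor PDGFRB were the other members above the range. Several genes of fibroblasts and their matrix were at the low end. COL3A1 was at the 0.418th, 2.96th and 1.30th percentile, lumican (LUM) at the 3.48th, 2.96th and 2.30th, and the fibroblast receptor PDGFRA at the 4.75th, 3.90th and 4.46th, and none of these was well above background on any array. COL1A2 was at the 17.2nd, 14.0th and 13.7th. Over the list, 5 of 24 measured genes (20.8%) were above the olfactory receptor range, 6 without replicate 3, and the median percentile was 29.4 against 51.6 for all genes.

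Markers of 7 other tissues (endothelium, leukocytes, red cells and megakaryocytes, melanocytes, neurons and glia, muscle, liver and gut) served as a comparison. Of 66 measured, 9 (13.6%) were above the olfactory receptor range, close to the 14.1% of all genes, 2 (3.03%) were in the top 10%, and their median percentile was 31.4. Without replicate 3, 10 (15.2%) were above the range and 5 (7.58%) in the top 10%, against 15.9% and 9.33% of all genes. No endothelial marker of 11 and no neural marker of 10 was above the range, and VE-cadherin (CDH5) was at the 42.5th, 33.2nd and 27.8th percentile. The 2 genes in the top 10% on all 3 arrays were CD4, the T-helper coreceptor, at the 97.9th, 98.1st and 96.8th, and TNNT2, the cardiac troponin T, at the 99.34th, 99th and 98.69th, each by 1 probe. Other defining genes of these lineages were dim. CD3E was at the 49.2nd, 40.9th and 35.4th percentile, and the B-cell antigen MS4A1, the myeloid factor SPI1 and HLA-DRA were not well above background on any array, nor were the muscle genes ACTC1 and MYL1. The 5 probes of PTPRC, the pan-leukocyte phosphatase CD45, disagreed, with 2 near the 95th percentile on replicates 1 and 2 and 2 below the 5th on every array. Of 9 pluripotency and cancer-testis genes, 2 were above the range, namely the stem cell factor POU5F1, at the 95.50th, 95.03rd and 90.32nd by 1 probe and the 37.8th, 38.5th and 44.5th by the other, and the cancer-testis antigen MAGEA4, at the 89.1st, 92.8th and 93.6th. In bulk RNA of a cell line, fewer cells that express a gene and less of its RNA per cell cannot be told apart.

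**Figure D2:**
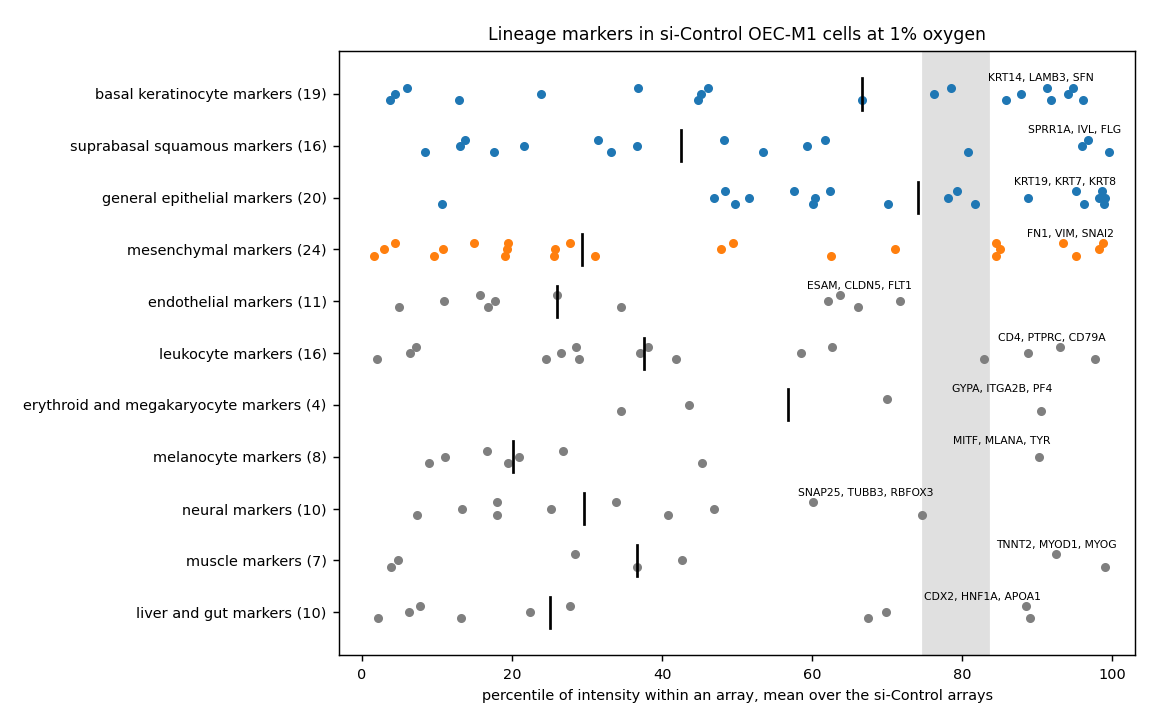
Each point is 1 marker gene measured on all 3 si-Control arrays, at its mean percentile of intensity over the arrays (x axis), grouped by lineage list (y axis, number of genes in brackets), with a black bar at the median of the list. The grey band spans the olfactory receptor limit of the 3 arrays, from 74.8 to 83.6, and the 3 brightest genes of each list are named. General epithelial markers have the highest median of the lists shown, at 74.1, and melanocyte markers the lowest, at 20.2.

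The HIF-1 target lists had the highest median percentiles of the lists described here apart from the housekeeping genes. Because HIF-1 acts through short DNA cores, ACGTG or GCGTG, the 250 bases before the start of the genes were searched for these letters on both strands, a CACGTG counting once on each strand. RefSeq gave a window for 44 of the listed targets, and the first one listed was used where a gene had several. A core was present in 33 of them (75.0%), against 11763 of 27305 promoters of the same length (43.1%). It was present in 12 of 16 windows (75.0%) of targets in the top 10% and in 17 of 24 (70.8%) of the other measured targets. The others include bright targets such as SLC2A1, whose window held none. A match is a description of letters and not of binding. The 27305 promoters were not matched to the targets in base composition, and the targets were listed because they are known as such. The difference in share was not tested. The windows of 3 bright targets and of CA12, a target that was dim, are shown 5′ to 3′ in the orientation of the gene on GRCh38.p14 as RefSeq gives them, with the cores in capitals.
PGK1 (chrX:78103998-78104247, plus strand): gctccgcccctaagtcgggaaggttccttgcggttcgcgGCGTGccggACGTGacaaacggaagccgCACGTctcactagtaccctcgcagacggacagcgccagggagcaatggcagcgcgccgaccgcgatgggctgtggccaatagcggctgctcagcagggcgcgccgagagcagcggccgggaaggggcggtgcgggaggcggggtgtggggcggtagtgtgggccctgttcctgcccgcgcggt
LDHA (chr11:18394313-18394562, plus strand): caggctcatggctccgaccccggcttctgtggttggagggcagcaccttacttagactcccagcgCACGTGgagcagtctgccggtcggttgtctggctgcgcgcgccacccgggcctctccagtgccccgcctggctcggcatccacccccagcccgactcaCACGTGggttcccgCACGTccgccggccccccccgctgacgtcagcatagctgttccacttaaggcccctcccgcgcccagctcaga
CA9 (chr9:35673678-35673927, plus strand): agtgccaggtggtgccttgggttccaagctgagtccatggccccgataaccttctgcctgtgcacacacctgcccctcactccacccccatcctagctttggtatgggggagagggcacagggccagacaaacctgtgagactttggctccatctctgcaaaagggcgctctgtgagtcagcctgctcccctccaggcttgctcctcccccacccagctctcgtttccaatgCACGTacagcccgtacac
CA12 (chr15:63381847-63382096, minus strand): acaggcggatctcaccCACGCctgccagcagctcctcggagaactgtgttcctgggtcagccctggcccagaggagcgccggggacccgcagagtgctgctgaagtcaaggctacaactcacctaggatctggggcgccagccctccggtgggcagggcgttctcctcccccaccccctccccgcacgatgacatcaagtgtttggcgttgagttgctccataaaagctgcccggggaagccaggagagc

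The window of PGK1 held 3 cores, that of LDHA 5, of which 2 pairs overlap in a CACGTG, and those of CA9 and CA12 held 1 each. The core of CA9 begins 18 bases before the start of the gene and that of CA12 begins 234 bases before it. The pair CA9 and CA12 encode membrane carbonic anhydrases, which hydrate carbon dioxide at the cell surface, and both are on the target list.

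Of 47 HIF-1 targets measured, 33 (70.2%) were above the olfactory receptor range and 20 (42.6%) were in the top 10% on all arrays, against 14.1% and 7.17% of all genes, and both counts were the same without replicate 3. For 28 of the 47, every probe measured on all arrays was above the range, against 1813 of all 20986 genes. Most of the 28, such as ADM, CA9, ENO1 and PGK1, had 1 probe, so their probes could not disagree. Others, such as HK2, LDHA and PFKP, had 2 probes, both above the range. By contrast, PFKFB3, PGAM1, VEGFA, MXI1 and INSIG2 were above the range by their brightest probe only. Their calls thus rested on the brightest probe. The dimmer probe of PGAM1 was at the 82.1st, 86.5th and 91.2nd percentile and that of PFKFB3 at the 75.6th, 81.15th and 89.1st. Both were below the limit on replicate 1 only. The median percentile of the 47 targets was 89.7, 90.9 and 95.8 on the 3 arrays. The targets were highest on replicate 3 in 36 of 47 cases (76.6%), against 51.3% of all genes, and the housekeeping genes in 16 of 20 (80.0%). By contrast, the markers of the other 7 tissues were lowest there in 37 of 66 cases (56.1%) and olfactory receptor genes in 50.6%, against 34.5% of all genes. Replicate 3 was also the dimmest array, and the part of this in the order of the arrays was not tested.

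Glycolytic enzymes led the list. LDHA, which turns pyruvate into lactate, was at the 99.95th, 99.80th and 99.83rd percentile, and its second probe averaged the 97.8th. ENO1 (enolase) was at the 99.86th, 99.86th and 99.79th, and PGK1, which makes ATP from bisphosphoglycerate, at the 99.81st, 99.60th and 99.62nd. GAPDH, PGAM1 and GPI were above the 97th on every array. These enzymes are also made in well-oxygenated cells, and GAPDH and PGK1 stand on the housekeeping list as well. CA9, a gene best known from hypoxic tumours, was at the 93.1st, 93.7th and 96.1st percentile by 1 probe. CA12 was at the 6.66th, 3.09th and 2.30th and was not well above background on any array. The glucose transporter SLC2A1 (GLUT1) was at the 87.9th, 92.5th and 96.1st and SLC2A3 (GLUT3) at the 69.0th, 73.7th and 78.4th, above the limit on replicate 3 alone. In all, 12 of 22 glycolysis and transport genes were in the top 10%.

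Among the other targets, 8 of 25 were in the top 10%. DDIT4, an inhibitor of mTORC1, was at the 99.93rd, 99.4th and 99.1st percentile, NDRG1 at the 98.7th, 98.3rd and 98.8th, and the vasodilator peptide ADM at the 99.2nd, 97.8th and 98.0th. IGFBP3, which binds insulin-like growth factors, was at the 99.1st, 97.7th and 98.1st, and BNIP3, a mitophagy receptor, at the 96.4th, 96.9th and 98.2nd. The angiogenic factor VEGFA was at the 97.8th, 95.9th and 98.9th by its brightest probe and at the 47.0th, 50.1st and 71.5th by its other. At the low end, erythropoietin (EPO), a target of kidney and liver cells, was at the 19.2nd, 25.9th and 21.3rd, and the circadian repressor BHLHE41 at the 41.5th, 41.2nd and 46.2nd. The chemokine receptor CXCR4, not measured on replicate 1, was at the 45.1st and 22.3rd.

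Of the HIF subunits, HIF1A was at the 96.1st, 94.3rd and 97.2nd percentile by its brightest probe and at the 70.4th, 67.2nd and 78.9th by the other. EPAS1, which encodes HIF-2α, was at the 58.5th, 69.6th and 84.0th, a range wider than the median range of 9.04 percentiles over all genes. ARNT, the partner of both, was at the 59.3rd, 65.4th and 74.8th. VHL is part of the complex that recognizes hydroxylated HIF-1α, and it was at the 97.6th, 97.9th and 97.6th. The prolyl hydroxylase EGLN1 was at the 92.2nd, 92.9th and 95.4th. EGLN2 was at the 58.1st, 64.4th and 66.2nd, and the asparaginyl hydroxylase HIF1AN at the 72.1st, 75.9th and 77.9th. Thus 3 of the 10 genes on the list of HIF subunits and oxygen sensors, which includes VHL, were in the top 10% on all arrays, and 4 without replicate 3.

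**Figure D3:**
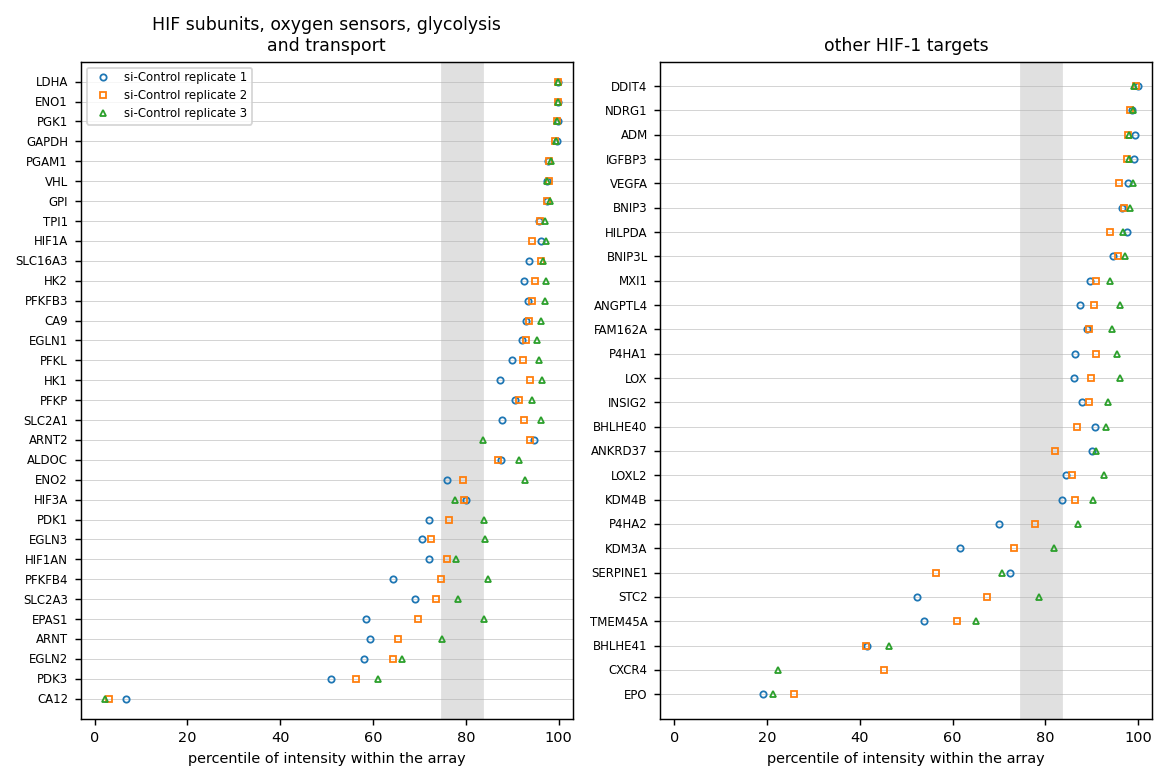
Percentile of intensity within each array (x axis) for HIF subunits, oxygen sensors, glycolysis and transport genes (left) and other HIF-1 targets (right), 1 row per gene, with a circle, square and triangle for si-Control replicates 1, 2 and 3 and a grey band from 74.8 to 83.6 for the olfactory receptor limits. Most targets sit to the right of the band, and CA12 and EPO sit near the left end.

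Receptor tyrosine kinases pass growth factor signals into the cell, and several are targets of HNSCC therapy. Of 54 measured, 11 (20.4%) were above the olfactory receptor range and 2 (3.70%) in the top 10%, 5 without replicate 3, and 4 were not well above background on any array. The 2 in the top 10% were LTK, better known in neural and blood cells, at the 96.5th, 96.4th and 94.4th percentile by 1 probe, and the collagen receptor DDR1 at the 95.7th, 94.3rd and 95.4th with both its probes above the range. EGFR was at the 85.6th, 89.5th and 94.9th by its brightest probe, while its others were at the 77.4th, 83.8th and 92.0th and at the 36.3rd, 22.5th and 34.7th. ERBB2 was at the 95.1st, 94.5th and 82.5th. The pair thus had opposite orders of the arrays, EGFR being highest and ERBB2 lowest on replicate 3.

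ERBB3, which signals as a partner of other members of its family, was at the 57.7th, 43.7th and 51.8th percentile, and all 3 of its probes were within the olfactory receptor range. AXL, IGF1R and MET, named after their values were seen, had mean percentiles of 91.8, 88.2 and 88.0, and MET at the 81.1st on replicate 1 fell below the limit there. PDGFRB was above the range by 1 probe, at the 95.7th, 95.5th and 89.0th, and at the 0.712th, 0.532nd and 2.62nd by its other. The lowest members were receptors of blood, nerve and stromal cells. FLT3 was at the 0.460th, 0.807th and 0.0826th percentile, MERTK at the 0.406th, 0.027th and 1.03rd, EPHA5 at the 0.558th, 1.29th and 4.02nd and PDGFRA as given above, and these 4 were the members without a mark on any array.

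**Figure D4:**
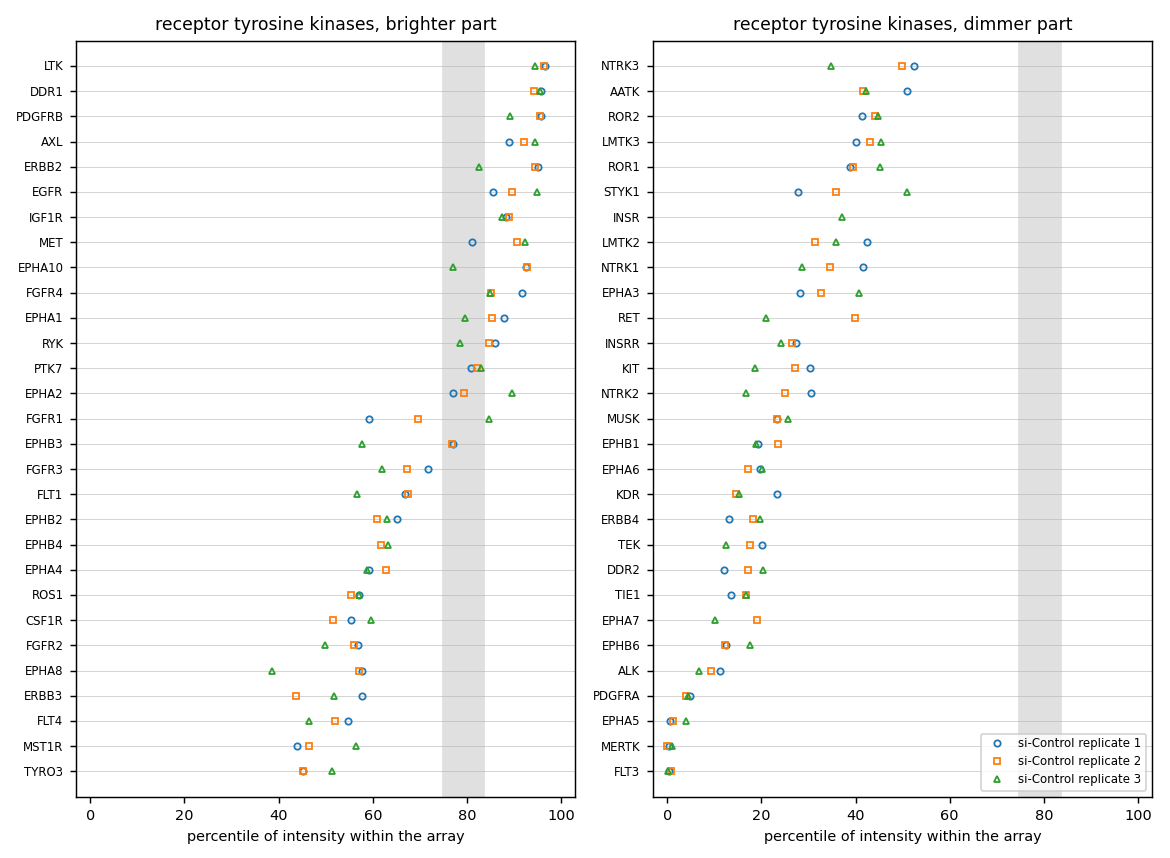
Percentile of intensity within each array (x axis) for the receptor tyrosine kinases, 1 row per gene, brighter members left and dimmer ones right, with a circle, square and triangle for si-Control replicates 1, 2 and 3 and a grey band from 74.8 to 83.6 for the olfactory receptor limits. LTK and DDR1 lead, and FLT3 and MERTK lie near 0.

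Nuclear receptors, transcription factors that many lipids and hormones switch on, were near the background, with 6 of 46 (13.0%) above the olfactory receptor range. The orphan receptor NR2F2 was at the 93.9th, 91.8th and 95.4th percentile and the vitamin D receptor (VDR), which acts in keratinocyte differentiation, at the 93.2nd, 93.3rd and 91.8th. ESR1, chosen after its values were seen, was at the 90.8th, 92.0th and 77.2nd by 1 probe, while its others lay below the 31st on every array. The xenobiotic receptor NR1I2, at the 2.68th, 3.03rd and 3.44th, and HNF4G, at the 4.32nd, 2.56th and 4.86th, were not well above background.

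Among Wnt and Notch receptors, 3 of 15 were above the range. FZD9 was at the 99.58th, 99.65th and 99.58th percentile by 1 probe and NOTCH1 at the 98.4th, 98.9th and 98.0th, although the other probe of NOTCH1 was at the 20.6th, 33.0th and 34.6th. The TGF-β and BMP receptors had no member of 13 above the range. Of these, the type II receptor TGFBR2 was at the 59.0th, 66.8th and 70.1st percentile and the type I receptor TGFBR1 at the 6.19th, 8.21st and 19.9th. Cytokine and death receptors had 2 of 26 (7.69%) above the range, or 3 (11.5%) without replicate 3, both below the share of all genes, although their median percentile of 65.3 was above that of all genes at 51.6. Their brightest member was IL17RC, a chain of the interleukin-17 receptor, at the 99.4th, 99.2nd and 99.3rd, and the lowest was the decoy receptor IL1R2, at the 0.0427th, 0.0947th and 1.78th. Toll-like receptors had none of 8 above the range, peptide and lipid GPCRs none of 20 and chemokine receptors 1 of 15, and CX3CR1 stayed below the 1st percentile on every array. Integrins had 2 of 26, 3 (11.5%) without replicate 3, and ITGB1, the β-subunit shared by most matrix-binding integrins, was at the 94.2nd, 96.1st and 97.5th.

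GATA factors bind the sequence they are named for, and GATA3 is the factor the study lowered in the other cells. In the si-Control cells GATA3 was at the 34.8th, 38.7th and 42.0th percentile, well above background on all arrays but inside the olfactory receptor range, as measured by 1 probe. GATA2 was at the 94.8th, 93.6th and 93.8th by 1 probe. GATA4 was at the 96.6th, 96.8th and 95.3rd by its brightest probe, at the 89.4th, 90.1st and 61.5th by the next and at the 67.9th, 67.6th and 55.8th by the last. GATA5 was at the 9.88th, 8.52nd and 14.9th. The rank of GATA3 is that of its probe, so it does not say whether the cells held less GATA3 than GATA2 mRNA.

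SOX factors had the lowest median percentile of the factor families listed, at 19.5, with 1 of 17 above the range. That member, SOX13, was at the 99.4th, 99.58th and 99.4th by 1 probe and at the 42.8th, 51.2nd and 63.0th by the other. SOX2, a factor of squamous stem cells, was at the 22.2nd, 21.7th and 19.5th percentile, and SOX11 and SOX17 were not well above background. AP-1 factors, which drive proliferation and invasion genes, had the highest median of the factor families listed, at 84.2. Of AP-1 factors, 4 of 12 (33.3%) were above the range, and of GATA factors and cofactors, 3 of 8 (37.5%). FOSL1 was at the 93.6th, 92.6th and 97.4th and JUNB at the 90.8th, 91.7th and 95.7th, while JUN was at the 33.9th, 45.2nd and 58.3rd. HOX genes had 2 of 34 (5.88%) above the range. PAX factors had none of 7, but 1 (14.3%) without replicate 3, namely PAX2 at the 89.9th, 88.5th and 73.3rd percentile. That call rested on 1 probe of PAX2, and its other was at the 10.6th, 9.60th and 5.34th.

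Among KLF factors, 3 of 15 were above the range, with KLF16 at the 97.4th, 97.5th and 97.4th percentile and KLF17, known from germ cells and early embryos, at the 97.5th, 97.9th and 98.5th, each by 1 probe. ETS factors had 3 of 25, 5 without replicate 3, led by ETV2, an endothelial factor, at the 99.62nd, 99.62nd and 99.4th by 1 probe and the 61.8th, 58.0th and 52.3rd by the other. The ETS factors of endothelial and blood cells FLI1, ERG and SPI1 were not well above background. RUNX1, a factor of blood and epithelial cells, was at the 95.9th, 96.3rd and 94.8th percentile by the brightest of 5 probes, the others of which reached at most the 78.5th. TFAP2A, an epidermal regulator, was at the 20.5th, 22.2nd and 34.3rd. STAT, IRF and NF-κB factors had 2 of 21 (9.52%) above the range and none in the top 10%, but 3 (14.3%) and 1 without replicate 3, and IRF8, a factor of myeloid cells, stayed below the 1st percentile.

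Laminins are the adhesive proteins of the basement membrane. Of 11 laminin chains, 5 (45.5%) were above the olfactory receptor range, 6 without replicate 3, and the median percentile was 86.5. Besides LAMB3, the chain LAMA5 was at the 93.4th, 92.9th and 95.2nd, whereas LAMB4 was at the 32.8th, 41.8th and 30.5th. Collagens had 8 of 41 (19.5%) above the range, with a median of 39.3. COL4A1, a chain of the basement membrane network, was at the 98.6th, 98.4th and 96.8th by 1 probe, and COL5A1 at the 92.1st, 94.8th and 95.4th with both probes above the range. COL11A2 was at the 98.1st, 98.0th and 96.1st, but its other probe measured on all arrays was at the 77.2nd, 68.5th and 43.9th. The fibril collagens COL2A1, COL3A1 and COL11A1, together with COL6A6, had no mark on any array. COL1A1, with no usable spot on replicate 2, was at the 86.8th on replicate 1 and the 60.5th on replicate 3.

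Adhesive glycoproteins and proteoglycans had 12 of 32 (37.5%) above the range and 7 in the top 10%, 10 without replicate 3. After FN1, the heparan sulphate proteoglycan SDC4 was at the 97.8th, 98.3rd and 98.4th percentile, thrombospondin THBS1 at the 95.2nd, 96.7th and 96.3rd, FBLN1 at the 94.98th, 94.16th and 95.95th, AGRN at the 94.0th, 94.1st and 94.3rd, and TGFBI at the 91.8th, 93.6th and 96.2nd. Tenascin C (TNC), abundant in tumour stroma, was at the 88.8th, 90.9th and 88.4th. Fibrillin FBN1 was at the 14.1st, 10.2nd and 11.8th and SPARC at the 9.66th, 17.1st and 5.69th. Enzymes that modify and crosslink collagen had 7 of 13 (53.8%) above the range, led by the lysyl hydroxylase PLOD3 at the 96.2nd, 96.8th and 97.1st, with lysyl oxidase (LOX), also a HIF-1 target, at the 86.2nd, 89.8th and 96.0th. LOXL4 was at the 6.0th, 5.26th and 4.77th.

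Matrix metalloproteinases, which cut the matrix, had 4 of 20 above the range and 4 not well above background on any array. The brightest were MMP19 at the 97.9th, 97.2nd and 92.1st, with a second probe at the 38.2nd, 35.1st and 24.1st, MMP28 at the 95.7th, 96.6th and 93.7th and MMP17 at the 93.4th, 93.4th and 94.8th. The collagenase MMP1 was at the 53.7th, 47.9th and 41.8th percentile and the gelatinase MMP2 at the 23.3rd, 20.5th and 30.6th, both within the range. The stromelysin MMP3 was at the 3.04th, 2.09th and 5.85th and had no mark on any array, as was the case for MMP8, MMP20 and MMP26. Of 11 protease inhibitors and genes of the plasminogen system, 1 was above the range. TIMP2 was at the 88.8th, 89.1st and 91.5th and TIMP1 at the 75.4th, 83.3rd and 89.3rd, whereas TIMP4 was at the 5.10th, 5.97th and 12.1st.

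**Figure D5:**
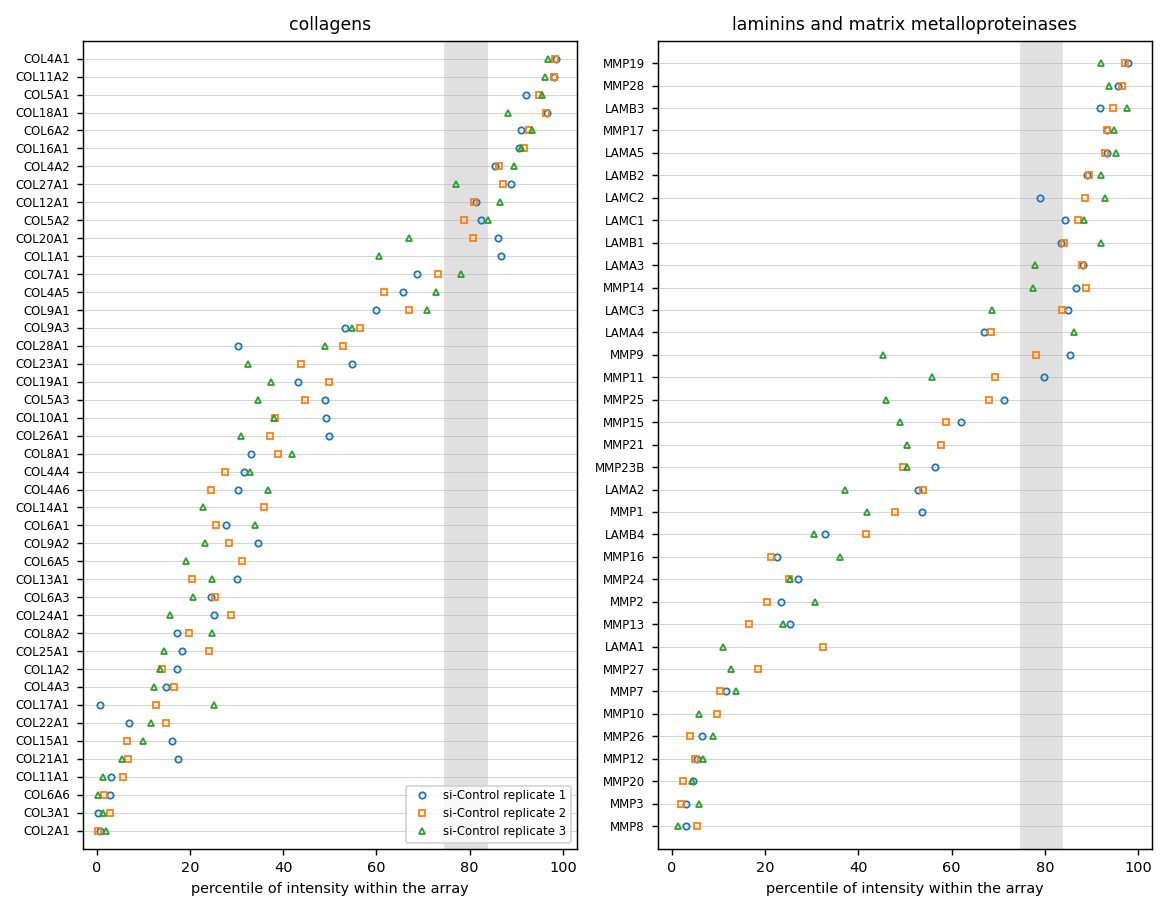
Percentile of intensity within each array (x axis) for collagens (left) and for laminins and matrix metalloproteinases (right), 1 row per gene, with a circle, square and triangle for si-Control replicates 1, 2 and 3, a missing symbol where an array had no usable spot, and a grey band from 74.8 to 83.6 for the olfactory receptor limits. Laminins gather at the top of the right panel, while COL3A1, COL2A1, MMP3 and MMP8 lie near 0.

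The study names 14 genes for these cells, and 7 were above the olfactory receptor range and 6 in the top 10%. Some of these genes were picked by the study on the same samples, so the share is no independent measure. Those not yet described were HMG20B, a chromatin protein of the LSD1 complex, at the 97.3rd, 98.0th and 97.6th percentile with all 3 probes above the range, and the growth factor TGFB2 at the 83.4th, 83.4th and 86.9th. ARHGDIB was at the 67.3rd, 69.8th and 63.3rd, WASF3, which drives actin branching, at the 16.4th, 23.0th and 27.1st, and the Wnt factor LEF1 at the 8.94th, 17.0th and 19.7th. All 14 were well above background on all arrays, but 88.8% of all genes met that mark.

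The ranks of single genes were stable for most genes, with a median range of 9.04 percentiles over the 3 arrays, and 405 genes (1.93%) had a range above 30. The 10 widest among genes above the limit on at least 1 array were CA2, JAZF1-AS1, LINC00111, LINC02240, OR7E47P, PHF21A, PRIMA1, SERTM1, ST8SIA3 and USP30-AS1, and replicate 3 was the lowest array for each. CA2, a cytosolic carbonic anhydrase, was at the 92.5th, 91.2nd and 43.6th percentile, and PHF21A, a partner of HMG20B in the LSD1 complex, at the 92.0th, 88.8th and 45.3rd.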

How the data were processed

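Total RNA of OEC-M1 cells was measured on 9 arrays with 1 dye, and the 3 si-Control arrays were used. The authors deposited scanner files from Agilent Feature Extraction 10.5.1.1 (per the submitters' processing notes), in which each spot has a median intensity, a local background and marks, not normalized between arrays. A second deposited file, from the authors, holds log2 values of each array. On the si-Control arrays, 100% of 57901 probes with 1 spot were within 0.001 of the log2 processed signal less 1 constant per array, with column medians of -2.13, -2.19 and -2.40, so the table is a scaled and not a quantile normalized version.

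In R 4.3.3 with limma 3.58.1, the background was corrected by normexp with an offset of 50 on the median spot signal, since the files hold no mean. Non-uniform and control spots were left out, the 3 arrays were quantile normalized and spots of a probe averaged. No spot was saturated. Of 58201 probes, 31104 matched a RefSeq symbol by accession, and the probe with the highest mean stood for its gene. Percentiles were computed in Python 3.11.15 with pandas 2.3.3 and numpy 2.4.6, and the steps were tested on simulated data. There was 1 group, so no test was made, and precision is limited by there being 3 arrays.

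The members and the 41 gene lists were chosen with earlier results of these data known. Of 777 listed genes, 765 matched a symbol. Named with values are the first 2 genes of each list, up to 6 of its brightest in the top 10%, its 4 dimmest, the genes the study names, the 20 brightest genes and the 10 with the widest range, not all of which are printed. Others are named as chosen after their values were seen or where probes disagree. Alternatives were the processed signal, the deposited table, no background correction, no offset, other rules for outlying spots, probes, names and marks, a stricter limit, taste receptor genes as the limit, and each array left out. A few genes of the lists are not reported here.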

Additional observations from a re-analysis of the deposited data

Results flagged for a closer look

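Of 24541 probes matched to no symbol and measured on all si-Control arrays, 2162 (8.81%) were above the olfactory receptor range on all 3 arrays. They are a signal outside the genes described, since no list or count above uses them, and the files give only accessions for them.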

How the results depend on the processing

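No paired analysis was possible because the si-Control arrays are 1 group and no test was made. Genes with no probe well above background on any array numbered 1105, and 411 with the scanner's mark of a positive and significant signal in place of well above background, or 1699 when at least 2 of the 3 arrays sufficed. Genes above the olfactory receptor range fell from 2954 to 1012 with the 99th percentile of the olfactory receptor genes as the limit, and basal keratinocyte markers from 6 to 0. The counts of all genes well above background and in the top 10%, of olfactory receptor genes well above background, of HIF-1 targets in the top 10% and of mesenchymal markers above the range stayed within 1.5 times under the alternatives run. The counts of the other lists were recomputed only without replicate 3, as given in the report, and with the mean of a gene's probes, which took all genes above the range from 2954 to 2093. There, collagens went from 8 to 4, nuclear receptors from 6 to 3 and Wnt and Notch receptors from 3 to 1. STAT, IRF and NF-κB factors, HOX genes, and pluripotency and cancer-testis genes each went from 2 to 1. Red cell and megakaryocyte markers and melanocyte markers each went from 1 to 0, and the markers of 7 other tissues from 9 to 6. Several other lists also lost genes. Leaving out each array in turn gave 18919 to 19886 genes well above background, 1203 to 1467 never so, 1537 to 1965 in the top 10%, 2987 to 3743 above the range, 255 to 275 olfactory receptor genes well above background, 20 to 26 HIF-1 targets in the top 10%, 6 to 7 basal and 5 to 6 mesenchymal markers above the range. Among the 306 genes named by the rule, ranking all transcript names moved 157 by over 1 SD and the mean of a gene's probes moved 126.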

Other observations

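Long non-coding RNA genes were dimmer than genes as a whole. Of 2940 measured, 322 (11.0%) were above the olfactory receptor range, 154 (5.24%) were in the top 10% on all si-Control arrays, and without replicate 3 these counts were 410 (13.9%) and 239. Their median percentile was 35.6, against 54.2 for protein-coding genes. They were lowest on replicate 3 in 1555 cases (52.9%), against 34.5% of all genes. The brightest, which were picked after their values were seen, held several known from tumour cells or as hosts of small RNAs. H19, an imprinted RNA, was at the 99.97th, 99.92nd and 99.95th percentile with both probes above the range. MALAT1, a nuclear RNA abundant in most cell types, was at the 99.61st, 99.2nd and 99.58th, and 3 of its 4 probes were above the range. MIR23AHG, the host of a cluster of microRNAs, was at the 98.95th, 99.39th and 99.70th by 1 probe. The snoRNA hosts GAS5, at the 98.07th, 97.95th and 99th, and SNHG5, at the 96.3rd, 96.7th and 98.1st, had every probe above the range. By contrast, MIR17HG was at the 99.31st, 98.98th and 98.86th and MIR31HG at the 98.6th, 98.6th and 98.8th by 1 of 3 probes, with the other 2 of each within the range.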
